A study of Mus musculus with 6 samples.

Results

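Proteins that a cell secretes or places in its membranes enter the endoplasmic reticulum (ER) through a set of complexes, and the RNA of 31 genes for subunits of these complexes is described here in activated mouse B cells with and without *Tent5c*, which encodes a cytoplasmic poly(A) polymerase. The genes were chosen by name: 4 for the Sec61 channel, *Sec62* and *Sec63*, 4 for the translocon-associated protein complex (TRAP), 5 for signal peptidase, 6 for the signal recognition particle (SRP) and its receptor, 2 for the TRAM proteins, *Hm13* for signal peptide peptidase, and 7 for the ER membrane protein complex (EMC). The choice was made with earlier results of these data known. All 31 were found among the 54446 genes of the data and all 31 passed the filter on low values, which left 12322 genes. Naive splenic B cells were obtained by negative selection from *Tent5c* KO mice and their cohoused WT littermates, 12 to 15 weeks old and of a mixed C57BL/6J X CBA background. Cells of both genotypes were kept for 7 days in medium with LPS at 20 µg/ml and IL-4 at 20 ng/ml, under which B cells proliferate and some become antibody-secreting plasma cells. The data were 6 libraries of rRNA-depleted total RNA, 3 per genotype, and each replicate number stands for 1 KO and 1 WT littermate and for 1 batch (pairs 1, 2 and 3 below). The sex of each mouse is not given in the labels.

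SRP binds the signal sequence of a growing protein and brings its ribosome to the receptor on the ER membrane, and Sec61 is the pore through which the chain passes. TRAP and the TRAM proteins stand beside the pore, Sec62 and Sec63 help proteins that engage the channel poorly or after translation, signal peptidase cuts the signal sequence off, and signal peptide peptidase cleaves what remains in the membrane. EMC places certain transmembrane segments into the membrane without Sec61, and plasma cells are known for a large ER that takes in immunoglobulin (Ig) chains.

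Promoters were read because genes of the ER are known to share elements to which the factors of the unfolded protein response bind. RefSeq sequences on GRCm38.p6 held promoters for 22 of the 31 genes, 23 in all, and the 250 bases before the start site were searched on both strands. The following 4 are shown: *Ssr3* and *Ssr4* for the TRAP genes, *Sec11a* for signal peptidase, and the more downstream of the pair of *Emc10* start sites for EMC. Capitals mark the letters CCAAT and CCACG, both of which are parts of the ER stress response element.
Ssr3 (chr3:65392554-65392803, minus strand): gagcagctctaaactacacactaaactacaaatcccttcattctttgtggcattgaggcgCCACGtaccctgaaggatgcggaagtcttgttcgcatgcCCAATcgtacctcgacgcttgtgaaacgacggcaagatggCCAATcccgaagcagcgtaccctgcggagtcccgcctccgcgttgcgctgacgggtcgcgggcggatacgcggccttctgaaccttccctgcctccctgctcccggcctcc
Ssr4 (chrX:73786773-73787022, plus strand): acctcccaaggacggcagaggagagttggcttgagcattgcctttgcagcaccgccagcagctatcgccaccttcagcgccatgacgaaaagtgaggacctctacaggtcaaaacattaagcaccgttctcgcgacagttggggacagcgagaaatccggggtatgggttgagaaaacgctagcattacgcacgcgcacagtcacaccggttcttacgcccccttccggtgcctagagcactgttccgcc
Sec11a (chr7:80947551-80947800, minus strand): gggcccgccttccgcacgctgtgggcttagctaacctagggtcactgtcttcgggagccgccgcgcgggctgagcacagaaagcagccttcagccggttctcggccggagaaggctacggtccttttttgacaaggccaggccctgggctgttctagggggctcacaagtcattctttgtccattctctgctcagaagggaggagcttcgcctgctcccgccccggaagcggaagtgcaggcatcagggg
Emc10 (chr7:44496419-44496668, minus strand): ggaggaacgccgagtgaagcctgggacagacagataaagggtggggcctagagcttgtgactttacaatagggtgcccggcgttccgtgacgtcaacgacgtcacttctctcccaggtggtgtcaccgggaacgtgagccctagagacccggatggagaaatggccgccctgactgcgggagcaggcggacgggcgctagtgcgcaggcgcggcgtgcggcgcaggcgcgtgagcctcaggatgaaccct

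In the *Ssr3* promoter the letters CCAAT began 151 and 111 bases before the start site and CCACG began 190 bases before it, whereas the promoters of *Ssr4* and *Sec11a* held neither. *Emc10* had CCACG only before its other start site. CCAAT was found in 5 of the 22 genes (*Emc6*, *Sec61g*, *Sec63*, *Spcs2* and *Ssr3*) and in 33.8% of the 32851 mouse promoters of the same length, and CCACG in 12 genes and in 28.3% of all promoters. A gene was counted if any of its promoters held the letters, whereas the percentages are of single promoters, so the units differ. The whole ER stress response element, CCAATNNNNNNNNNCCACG, which contains both shorter motifs, was in 0 of the 22 genes and in 0.113% of all promoters. Its second form, ATTGGNCCACG, was in 0 genes and in 0.0304%, and the core of the unfolded protein response element, TGACGTGG, in 0 genes and in 0.563%. The median GC content was 60.0% for the promoters of these genes and 52.4% for all.

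Values are counts of read pairs (fragments) on the exons of a gene, divided by the size factor of the library, and are called normalized counts. The libraries held between 5393558 and 6793520 fragments on genes, where an observed count of 0 sets an upper limit of 3 on the expected number of fragments, which is 2.72 to 3.61 normalized counts by library. Even *Emc4*, with the fewest normalized counts of the 31 genes, had 60.2 in its lowest library. *Tent5c* itself had 1255, 767 and 1584 normalized counts in WT (pairs 1, 2 and 3) against 1993, 993 and 1170 in the KO littermates. The log2 fold change was 0.20 (SE 0.19, adjusted *p* = 0.970 from limma, −0.033 without replicate 1). What the KO allele removes is not given in the sources used here, so this level does not check the labels. All 5 B cell markers used (*Cd79a*, *Cd79b*, *Ms4a1*, *Pax5* and *Cd22*) were present, with summed levels of 20597 to 24644 normalized counts in WT and 22099.6 to 25374 in KO. Of the plasma cell markers 6 of 7 passed a mean of 10 normalized counts (*Sdc1*, *Prdm1*, *Xbp1*, *Irf4*, *Jchain* and *Mzb1*), while *Tnfrsf17* lay at 0 to 1.89. Of the markers of other cells, 1 of 10 passed for T cells (*Cd28*), 3 of 10 for myeloid cells (*Lyz2*, *Adgre1* and *Cd68*) and 0 of 6 for erythroid cells.

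Genes were compared in level per kb of exons, in WT, as the mean ± SD of the 3 libraries. TRAM had the highest median with 456 normalized counts per kb, but this is the midpoint of only 2 genes, *Tram1* at 878 and *Tram2* at 33.1. It was followed by TRAP with 421, signal peptidase with 315, the Sec61 channel with 216 and *Hm13* with 187. Lower still were SRP and its receptor with 97.5, Sec62 and Sec63 with 80.1, and EMC with 66.1. The median of all genes tested was 45.1. This order depends on the length used: with the longest coding transcript in place of all annotated exons, TRAM was at 490, TRAP at 912, signal peptidase at 567 and the Sec61 channel at 402, and TRAP stood above TRAM. EMC was lowest by both lengths, but with the mean over the genes in place of the median it was at 96.7 per kb of exons, above Sec62 and Sec63 at 80.1.

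Per kb of all annotated exons, the most abundant RNA was *Tram1* (translocating chain-associated membrane protein) at 878 ± 97.3 normalized counts per kb, then *Ssr3* (TRAP subunit γ) at 840 ± 123 and *Sec61b* (the β subunit beside the pore) at 667 ± 127. At the other end stood *Sec61a2* at 28.1 ± 1.43, *Tram2* at 33.1 ± 7.54 and *Srprb* at 37.0 ± 8.87. The order of single genes also depends on the length. Per kb of the longest coding transcript, *Sec11c* was first at 2490 ± 371, followed by *Ssr4* at 1681 ± 340.3, *Sec61b* at 1502 ± 287, *Ssr3* at 1185 ± 173 and *Tram1* at 945 ± 105, and *Tram2* was last at 34.0 ± 7.74. By all exons, neighbours in the order of the 31 genes overlapped in the ranges of their 3 WT libraries in all but 3 cases: *Sec11a* lay above *Emc4*, *Sec63* above *Emc7* and *Emc1* above *Srprb* with no overlap. Within EMC, *Emc6* was highest by all exons (246 ± 20.6 per kb, with *Emc3* next at 110 ± 19.3), while *Emc2* was highest by the longest coding transcript (302 ± 18.5, against 261 ± 21.9 for *Emc6*).

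Several subunits are made from a pair of related genes, and in each pair 1 gene held most of the RNA. *Sec61a1* and *Sec61a2* encode alternative forms of the pore itself, and the first was 10.4 ± 2.13 times the second per kb in WT and 8.62 ± 0.606 times in KO. *Sec11c* and *Sec11a* encode alternative catalytic subunits of signal peptidase, with a ratio of 3.41 ± 0.447 in WT and 3.54 ± 0.329 in KO (7.88 ± 1.03 and 8.17 ± 0.759 by the longest coding transcript). *Tram1* was 27.1 ± 4.06 times *Tram2* in WT and 26.8 ± 1.56 times in KO. For all 3 pairs of genes the ranges of the WT and KO libraries overlapped. Of the 75-base windows of *Sec61a2*, 35.2% also lie, on either strand, in the annotation of *Nudt5*. For *Srprb*, also at the low end, 27.2% of the windows lie in the annotation of *Gm20425* as well. Fragments were counted by strand, and whether these windows affect the low levels of *Sec61a2* and *Srprb* was not tested.

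**Figure D1:**
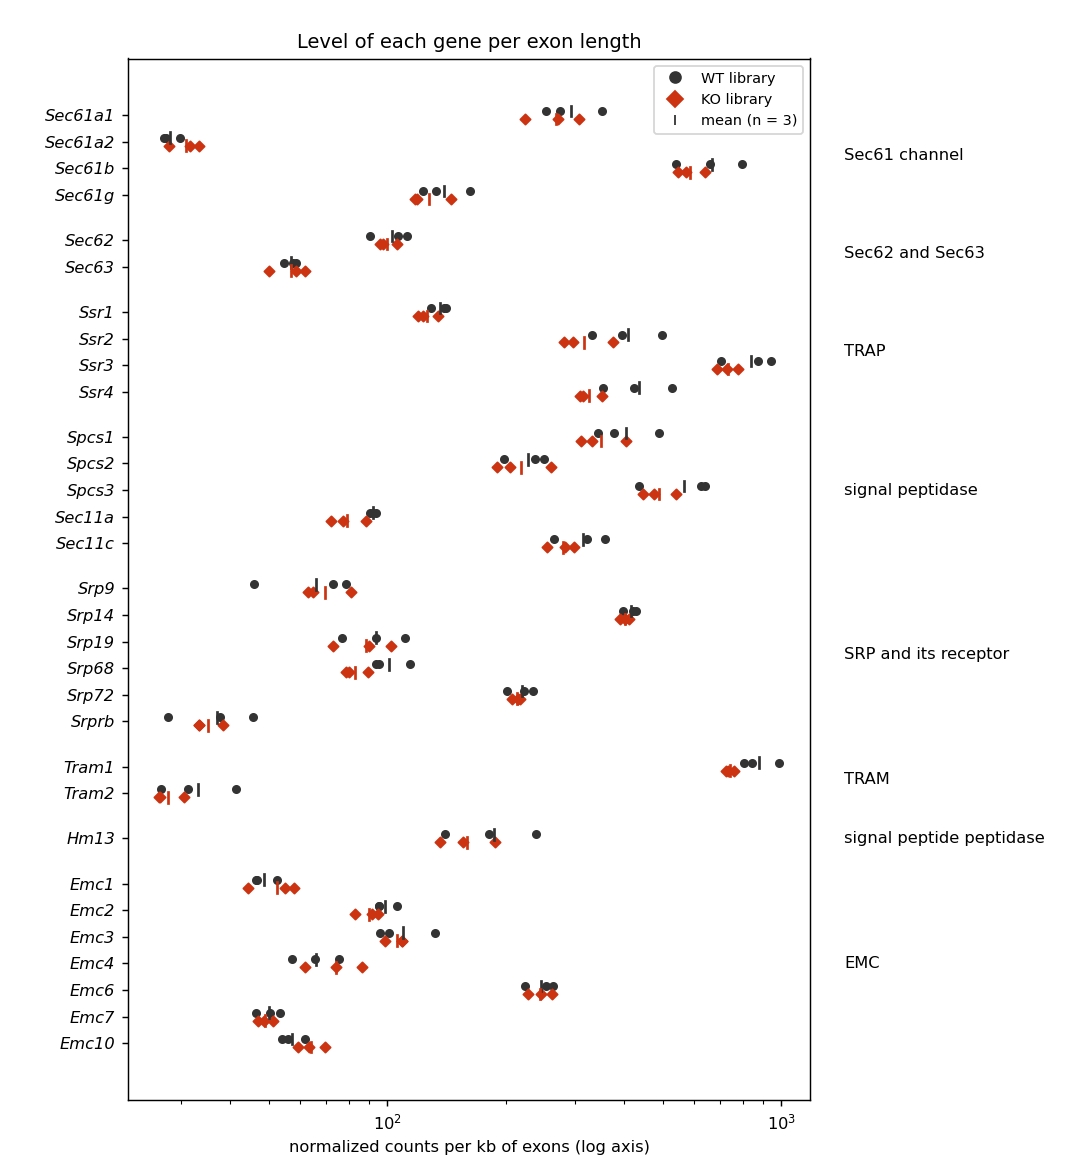
Normalized counts per kb of exons (log axis) for the 31 genes, grouped by complex, with each WT library as a dot, each KO library as a diamond and the mean of 3 as a tick. *Sec61a2*, *Tram2* and *Srprb* sit at the low end, *Tram1* and *Ssr3* at the high end, the EMC genes other than *Emc6* run from the middle downwards, and the WT and KO symbols overlap for most genes.

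KO was compared with WT for every gene by limma on log2(normalized count + 1) with the pair as a block, with Benjamini-Hochberg adjustment over all genes tested and a threshold of 0.05. None of the 31 genes passed it, and 0% of all 12322 genes did (smallest adjusted *p* 0.653, with 579 genes at an unadjusted *p* under 0.05). The edgeR quasi-likelihood fit to recovered fragments also called 0 genes overall (smallest adjusted *p* 0.669), with 5 of the 31 at an unadjusted *p* under 0.05. DESeq2 called 0.222% of its 9894 genes lower and none of the 31 (smallest adjusted *p* 0.600, for *Ssr4*), with 3 at an unadjusted *p* under 0.05. The share of all genes at an unadjusted *p* under 0.05 was not computed for edgeR or DESeq2, so these counts have no background. Without replicate 1, limma called 168 genes lower, or 1.36% of all, and 0 of the 31. The differences below are therefore given as values, with their sizes and errors.

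The direction leaned to lower RNA in KO, with 26 of the 31 log2 fold changes below 0 against 49.8% of all genes. Their median was −0.12, while that of all genes tested was 0.00067. By pair, 18, 20 and 26 of the 31 genes were lower in KO in pairs 1, 2 and 3, against 6553, 6152 and 6102 of all 12322 genes. The median log2 ratios of the 31 were −0.068, −0.046 and −0.29, so that pair 3 showed the largest shift. Without replicate 3 the median log2 fold change of the genes was −0.016 with 18 below 0. The share of all genes below 0 in that fit was not computed. Lower in all 3 pairs were 9 genes (29.0%, against 13.1% of all genes), namely *Ssr1*, *Ssr2*, *Ssr3*, *Ssr4*, *Sec11a*, *Sec11c*, *Srp68*, *Tram1* and *Emc2*. Higher in all 3 were 2 genes, *Sec61a2* and *Emc10*, against 11.7% of all genes. An unadjusted *p* under 0.05 in limma was reached by 6 of the 31 genes for lower RNA in KO (19.4%, against 3.03% of all genes) and by 0 for higher RNA (against 1.67%). The 6 became 8 without replicate 1 and 2 without replicate 3, but the share of all genes in those fits was not computed. In 5 genes (*Ssr4*, *Sec11a*, *Srp68*, *Tram1* and *Emc2*) every KO library lay below every WT library, which held for 3.44% of all genes. In bulk RNA, fewer cells of a type and less RNA per cell cannot be told apart.

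**Figure D2:**
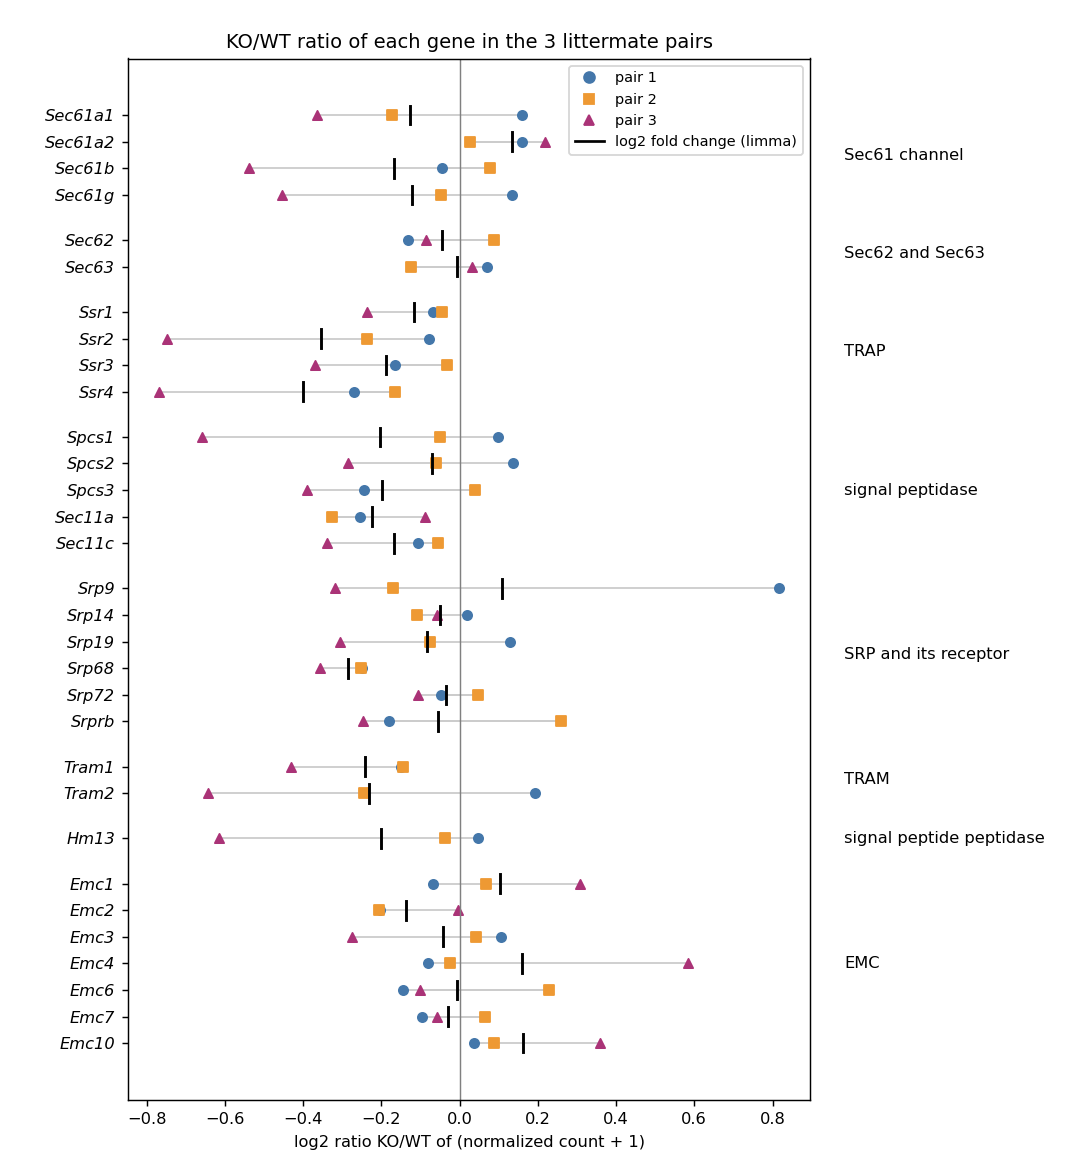
The log2 ratio KO/WT of each of the 31 genes in pair 1 (circle), pair 2 (square) and pair 3 (triangle), with the log2 fold change from limma as a black tick. All points of the 4 TRAP genes lie below 0, while points of the EMC genes lie on both sides, and the triangles of pair 3 reach lowest for most other genes.

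TRAP is a complex of 4 membrane proteins that assists the entry of proteins with weak signal sequences, and all 4 of its genes were lower in KO in every pair, with no 75-base window shared with another gene. Their log2 fold changes ran from −0.40 to −0.12 with a median of −0.27, and 3 of the 4 had an unadjusted *p* under 0.05. *Ssr4* (TRAP δ, chromosome X, 73787028 to 73790830, plus strand) had 1310, 1092 and 1633 normalized counts in WT and 1086, 974 and 958 in KO of pairs 1, 2 and 3. The genotypes did not overlap, and the widest gap was in pair 3. Its log2 fold change was −0.40 (SE 0.12, unadjusted *p* = 0.0134 and adjusted *p* = 0.931 from limma), a level 24.3% lower, and −0.22 without replicate 3.

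*Ssr2* (TRAP β, chromosome 3, 88575876 to 88588419, plus strand) had 736, 616 and 927 normalized counts in WT and 697, 522 and 552 in KO. Here the KO library of pair 1 lay above the WT library of pair 2, so the genotypes overlapped, although each KO library was below its littermate. The log2 fold change was −0.35 (SE 0.13, adjusted *p* = 0.970 from limma) and −0.16 without replicate 3. *Ssr3* (TRAP γ, chromosome 3, 65379655 to 65392623, minus strand) had 3641, 2937 and 3935 normalized counts in WT and 3248, 2873 and 3044 in KO, with a log2 fold change of −0.19 (SE 0.078). It was nearly level in pair 2, and leaving out replicate 3 gave −0.098. *Ssr1* (TRAP α), with 1349, 1451 and 1470 in WT and 1286, 1407 and 1248 in KO, differed least, with a log2 fold change of −0.12 (SE 0.067), and −0.056 without replicate 3.

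Of the channel itself, no gene was lower in all 3 pairs. *Sec61a1* had 1849, 1700 and 2356 normalized counts in WT and 2064, 1507 and 1831 in KO, so that KO was the higher library in pair 1 and the lower in the other two (log2 fold change −0.13, SE 0.10, and −0.0076 without replicate 3). *Sec61b* and *Sec61g*, the small subunits, had log2 fold changes of −0.17 and −0.12, and both came to just above 0 without replicate 3, at 0.016 and 0.044. *Sec61a2* was the exception, with 136, 125 and 124 normalized counts in WT and 152, 128 and 144 in KO and a log2 fold change of 0.13 (SE 0.11). Between 13.1% and 35.2% of the windows of the 4 genes are shared, on either strand, with other annotated genes or pseudogenes. *Sec62* and *Sec63* differed by −0.044 and −0.0073 on the log2 scale, with standard errors of 0.080 and 0.076.

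All 5 signal peptidase genes had negative log2 fold changes, with a median of −0.20 and a range of −0.22 to −0.069. *Sec11a* (chromosome 7, 80904889 to 80947780, minus strand) had 425, 416 and 432 normalized counts in WT and 356, 332 and 407 in KO. The WT libraries lay close together, above all 3 KO libraries, and unlike most of the genes the gap was narrowest in pair 3. The log2 fold change was −0.22 (SE 0.083, unadjusted *p* = 0.0329 and adjusted *p* = 0.970 from limma), and between −0.29 and −0.17 with any pair left out. *Sec11c*, the more abundant catalytic gene, had 2185, 1803 and 2437 in WT and 2030, 1734 and 1926 in KO (log2 fold change −0.17, SE 0.074, and −0.081 without replicate 3). The accessory subunits *Spcs1*, *Spcs2* and *Spcs3* had log2 fold changes of −0.20, −0.069 and −0.20, and each was higher in KO in at least 1 pair. Without replicate 3 these were 0.024, 0.039 and −0.10.

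In SRP, *Srp68* (chromosome 11, 116245166 to 116274217, minus strand), which binds the SRP RNA together with *Srp72*, had 256, 261 and 313 normalized counts in WT and 215, 219 and 244 in KO. The genotypes did not overlap and the gap was similar in the 3 pairs, with log2 ratios of −0.25, −0.25 and −0.36. This gave a log2 fold change of −0.29 (SE 0.086, unadjusted *p* = 0.0143 and adjusted *p* = 0.957 from limma), which stayed between −0.30 and −0.25 with any pair left out. Its partner *Srp72* was at −0.036 (SE 0.063). *Srp9*, which pairs with *Srp14* to slow elongation, had 254, 405 and 436 normalized counts in WT and 448, 359 and 350 in KO. Its log2 ratio of 0.82 in pair 1 was the highest of the 31 genes in any pair, the other pairs had −0.17 and −0.32. The log2 fold change of 0.11 (SE 0.21) turned to −0.24 when replicate 1 was left out. *Srp14* and *Srp19* had log2 fold changes of −0.050 and −0.084, and *Srprb*, the membrane-anchored β subunit of the SRP receptor, −0.055.

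*Tram1* (chromosome 1, 13564698 to 13589910, minus strand) had 2667, 2540 and 3124 normalized counts in WT and 2404, 2295 and 2319 in KO, without overlap of the genotypes. The log2 fold change was −0.24 (SE 0.076, unadjusted *p* = 0.0174 and adjusted *p* = 0.970 from limma), a level 15.4% lower, and −0.15 without replicate 3. *Tram2* had 178, 208 and 276 in WT and 203, 175 and 176 in KO, with opposite directions in pairs 1 and 3 and a log2 fold change of −0.23 (SE 0.16, −0.027 without replicate 3). *Hm13* had 1611, 1245 and 2117 in WT and 1665, 1212 and 1382 in KO. Its log2 fold change of −0.20 (SE 0.13) rested on pair 3, being 0.0044 without it.

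**Figure D3:**
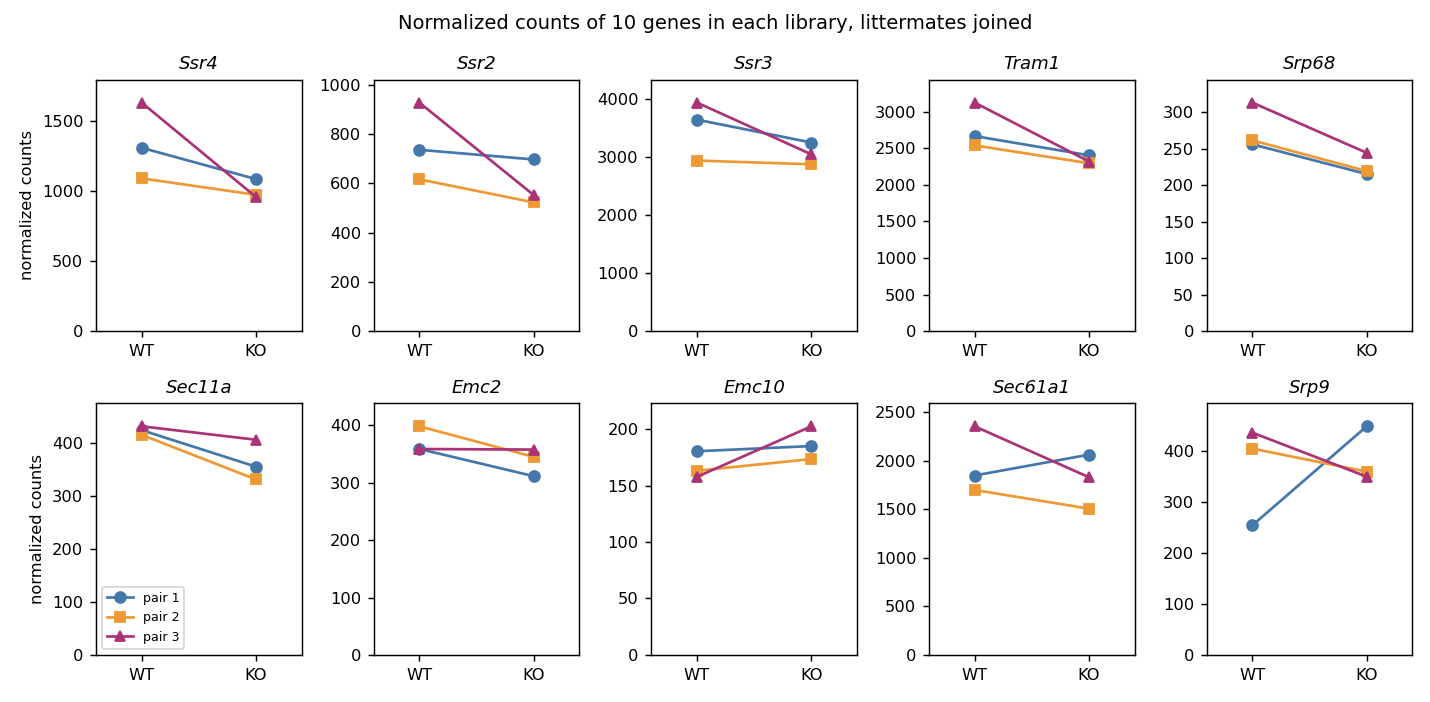
Normalized counts (axes from 0) of 10 of the genes in the WT and KO libraries, with the littermates of a pair joined by a line. The lines of the 6 genes with an unadjusted *p* under 0.05 (*Ssr4*, *Ssr2*, *Ssr3*, *Tram1*, *Srp68*, *Sec11a*) slope down in all 3 pairs, those of *Emc10* slope up, and those of *Sec61a1* and *Srp9* cross.

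The EMC genes had a median log2 fold change of −0.0061, with 4 below 0 and 3 above. *Emc2*, a cytosolic subunit, had 359, 398 and 359 normalized counts in WT and 311, 345 and 358 in KO. Every KO library was below every WT library, but in pair 3 the littermates hardly differed (log2 ratio −0.0042). Its log2 fold change was −0.14 (SE 0.084). *Emc10*, a subunit on the lumenal side, had 180, 163 and 158 in WT and 185, 173 and 202 in KO, higher in each pair with a log2 fold change of 0.16 (SE 0.11, adjusted *p* = 0.970 from limma), and 0.062 without replicate 3. *Emc4* had 68.9, 79.5 and 60.2 in WT and 65.1, 78.2 and 90.8 in KO, and its log2 fold change of 0.16 (SE 0.18) was −0.052 without replicate 3. *Emc3*, the insertase subunit, and *Emc6* and *Emc7* lay between −0.042 and −0.0061. *Emc1* was at 0.10 (SE 0.10, and −0.00047 without replicate 3), and 30.0% of its windows are shared, on either strand, with other genes.

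Set side by side by pair, the complexes were ordered differently in each. The median log2 ratio KO/WT of the TRAP genes was −0.12, −0.10 and −0.56 in pairs 1, 2 and 3, that of the Sec61 channel 0.15, −0.010 and −0.41, of signal peptidase −0.11, −0.056 and −0.34, and of EMC −0.081, 0.064 and −0.0042. TRAP was thus below EMC in each pair, by 0.041, 0.17 and 0.55 on the log2 scale (mean difference −0.25 ± 0.27, SD over 3 pairs), and below the Sec61 channel by 0.27, 0.094 and 0.15 (mean difference −0.17 ± 0.089). Signal peptidase was also below EMC in each pair (mean difference −0.16 ± 0.16), whereas the Sec61 channel was above it in pair 1 and below it in pairs 2 and 3 (−0.084 ± 0.32). With 3 pairs an exact two-sided permutation test cannot give a *p* under 0.25, so these differences are a description. The subunits of SRP and its receptor had pair medians of −0.014, −0.092 and −0.28, the TRAM genes of 0.021, −0.20 and −0.54, and Sec62 and Sec63 of −0.031, −0.018 and −0.027.

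**Figure D4:**
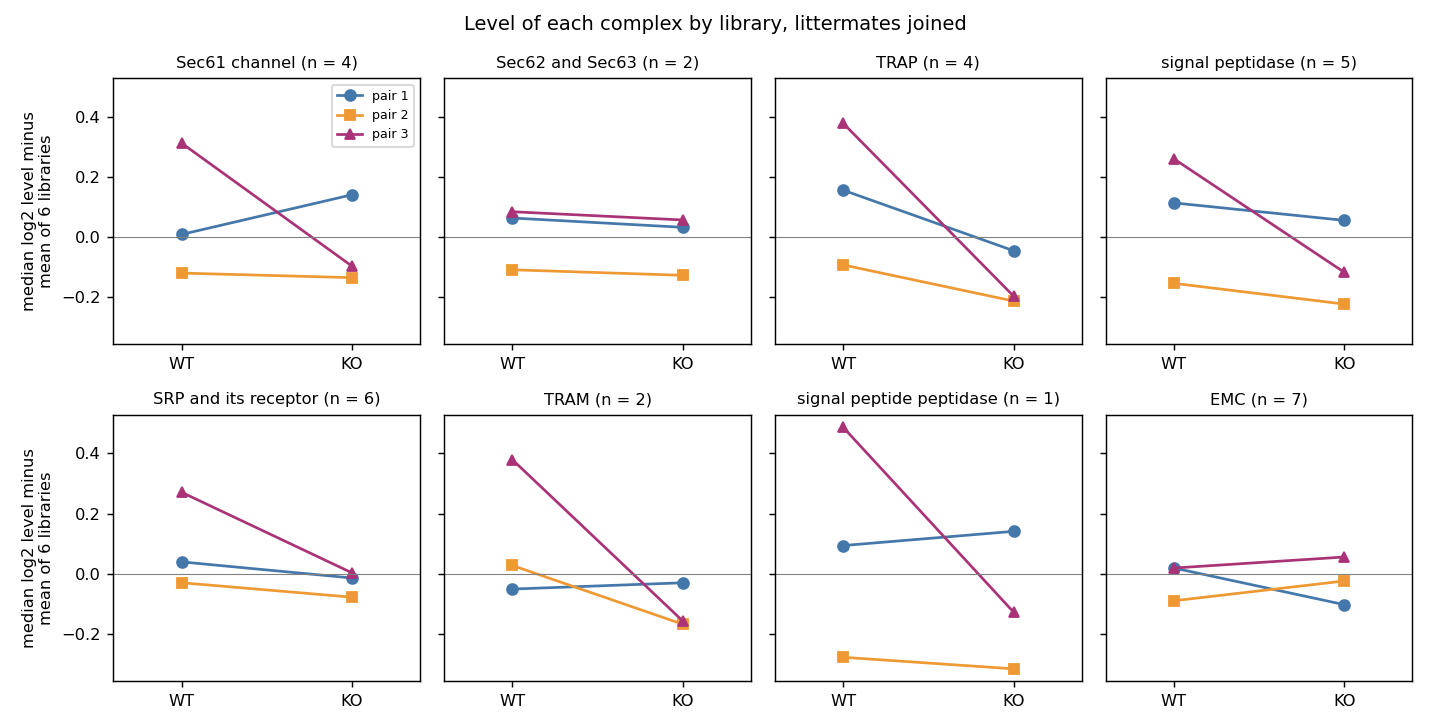
For each complex, the median over its genes of the log2 level in a library minus the mean of the 6 libraries, with littermates joined. The WT library of pair 3 is the highest and the KO library of pair 2 the lowest in every panel except EMC, where the KO libraries of pairs 3 and 1 take these places.

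The medians also differed between libraries of 1 genotype. On the log2 scale around the mean of the 6 libraries, the TRAP median was 0.16, −0.093 and 0.38 in the WT libraries of pairs 1, 2 and 3 and −0.045, −0.21 and −0.20 in the KO libraries. The WT library of pair 2 was thus below the mean, and that of pair 3 far above it. The same pair 3 WT library had the highest summed level of the plasma cell markers, 24686 normalized counts, against 15972 and 12008 in the WT libraries of pairs 1 and 2 and 20451, 11616 and 14567 in the KO libraries of pairs 1, 2 and 3. It also had the highest share of fragments on Ig genes, 3.30%, against 2.52% and 1.51% in WT and 2.09%, 1.02% and 1.54% in KO. The part of these in the differences between KO and WT was not tested. Together the 31 genes took 0.421 ± 0.0497% of the fragments in WT and 0.385 ± 0.0246% in KO. Each pair had the smaller share in KO, with 0.424% in WT and 0.408% in KO in pair 1, 0.369% and 0.359% in pair 2, and 0.469% and 0.386% in pair 3.

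**Figure D5:**
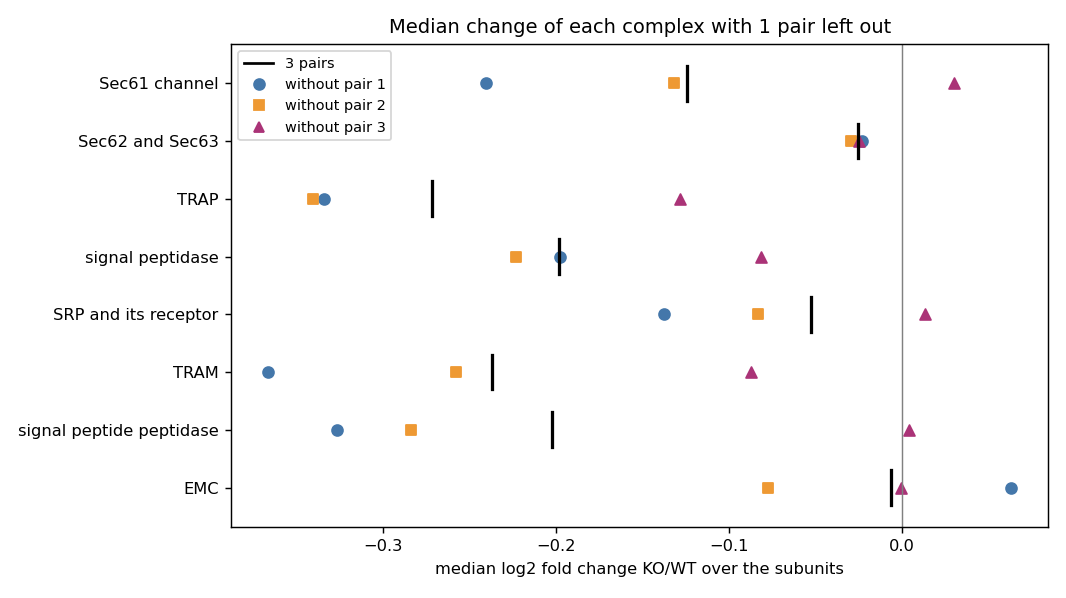
Median log2 fold change KO/WT over the genes of each complex with all 3 pairs (black line) and with pair 1, 2 or 3 left out. TRAP, signal peptidase, TRAM and Sec62 with Sec63 stay below 0, at −0.13, −0.081, −0.087 and −0.025 without pair 3. The Sec61 channel, SRP with its receptor and *Hm13* reach 0.030, 0.014 and 0.0044 without it.

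Other genes of the same route were taken as lists, which were also chosen with earlier results of these data known. Over all genes tested, 49.8% had negative log2 fold changes and 13.1% were lower in all 3 pairs. Lower RNA in KO at an unadjusted *p* under 0.05 in limma was found for 3.03%. Of 26 further targeting and insertion genes, 25 were tested and 19 had negative log2 fold changes, with a median of −0.073. Lower in all 3 pairs were 5 (20.0%), and 1 had an unadjusted *p* under 0.05 in limma (4.0%, near the share of all genes). That gene was *Sil1*, the nucleotide exchange factor of the chaperone BiP, with 233, 247 and 247 normalized counts in WT and 182, 190 and 193 in KO (log2 fold change −0.36, SE 0.089, adjusted *p* = 0.738 from limma). The next by *p* was *Srp54a*, which binds signal sequences in SRP, at −0.50 (SE 0.22, adjusted *p* = 0.970 from limma). It had only 13 to 51 fragments per library. The copy *Srp54c* averaged 121 normalized counts in WT and 113 in KO, with a log2 fold change of −0.097 (SE 0.13). *Srp54b* had 0 in every library. Fragments that fit several near-identical copies were left out, which may lower these levels. The 12 oligosaccharyltransferase genes, whose enzyme adds sugars to chains leaving the channel, were all below 0 (median −0.18), with 7 lower in all pairs and 5 at an unadjusted *p* under 0.05, among them *Ddost* at −0.38 (SE 0.086) and *Stt3a* at −0.22 (SE 0.064). The 15 ER chaperones and folding enzymes had a median of −0.38, were all lower in all 3 pairs, and 14 had an unadjusted *p* under 0.05, with the smallest for *Ppib* (−0.44, SE 0.084) and *Sdf2l1* (−0.50, SE 0.099), both at an adjusted *p* of 0.693 in limma. By pair, the chaperone medians were −0.16, −0.32 and −0.63 in pairs 1, 2 and 3. Those of oligosaccharyltransferase were −0.14, −0.057 and −0.38, and those of the targeting list −0.0060, −0.037 and −0.13. DESeq2 called 2 of the chaperones lower after adjustment, against 0.222% of all its genes. These were *Hspa5* (adjusted *p* = 0.0306 from DESeq2) and *Ppib* (adjusted *p* = 0.0494 from DESeq2), the former being named after its value was seen. The TRAP median of −0.27 thus lay between those of the oligosaccharyltransferase and the chaperone lists, and the EMC median of −0.0061 above that of every list compared.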

How the data were processed

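RNA of naive splenic B cells from 3 littermate pairs (*Tent5c* KO and WT) was sequenced after 7 days of activation. The genotype, replicate number and batch were taken from the labels, and the littermate pairing from the methods of the paper, and the deviations of littermates from their group means correlated over genes at 0.328, 0.685 and 0.170 in pairs 1, 2 and 3. The authors aligned the reads to GRCm38 with STAR 2.6.1a, counted uniquely placed, properly paired fragments on exons by strand with featureCounts (Subread 1.6.3) and Gencode annotation, and scaled them by the size factors of DESeq2. What the authors deposited is this scaled signal, in normalized counts, for 54446 genes. Fragments with several placements were left out, which lowers genes with near-identical copies, and scaling hides a change shared by most transcripts.

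Fragments were recovered from the values (100% of them whole within 0.001). Depth was 5393558 to 6793520 fragments per library, and limits and floors from counting cover counting error only. Gencode vM21 (GRCm38) gave symbols, positions and lengths for all but 37 of the genes. *Hm13* is named H13 there. Genes averaging 10 or more normalized counts were tested with limma 3.58.1 in R 4.3.3 (lmFit, then eBayes with its trend option) on log2(normalized count + 1) with genotype and pair, two-sided, and adjusted by Benjamini-Hochberg. On this scale the changes of low genes are understated. The recovered fragments were also tested with DESeq2 1.42.0 and edgeR 4.0.16. Other pseudocounts, filters, scalings and tests, a fit without the block and fits without each pair were computed.

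The genes and lists were chosen with earlier results of these data known. Named genes were the 31, *Tent5c* and, from each further list, the 2 with the smallest *p*. *Hspa5*, *Bcap29*, *Bcap31*, *Srp54b* and *Srp54c* were named after their values were seen, and markers were named from lists. *p*-values rest on the spread between 3 littermate pairs, which limma, edgeR and DESeq2 each combine with that of other genes. A further B cell marker is not reported here.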

Additional observations from a re-analysis of the deposited data

How the results depend on the processing

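Of 372 comparisons of a gene's log2 fold change with its value under another setting, 350 kept their direction and none passed the threshold. The other filters and the fit with no replicate block cannot change a log2 fold change in this balanced design. Their directions were thus fixed in advance, and the 350 include them. Leaving out replicate 1, 2 or 3 reversed 5, 1 and 12 of the 31 directions. The direction was the opposite for *Sec63* and *Emc6* with TMM scaling (0.0029 and 0.0041) and with quantile normalization (0.0050 and 0.0089). Leaving out 1 pair gave both directions for *Sec61b* (−0.29 to 0.016), *Sec61g* (−0.25 to 0.044), *Sec62* (−0.11 to 0.00070), *Sec63* (−0.046 to 0.051), *Spcs1* (−0.35 to 0.024), *Spcs2* (−0.17 to 0.039), *Srp9* (−0.24 to 0.32), *Srp19* (−0.19 to 0.027), *Srp72* (−0.078 to 0.000049), *Srprb* (−0.21 to 0.041), *Hm13* (−0.33 to 0.0044), *Emc1* (−0.00047 to 0.19), *Emc3* (−0.12 to 0.074), *Emc4* (−0.052 to 0.28), *Emc6* (−0.12 to 0.063) and *Emc7* (−0.077 to 0.0032), most of them without replicate 3.

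The 6 genes lower at an unadjusted *p* under 0.05 were 3 with DESeq2, 4 with no replicate block, and 2 to 8 with 1 pair left out. The shares of all genes under these settings were not computed. The fit with no replicate block gave the same median of −0.12, as it must with 1 KO and 1 WT library in each pair. Against the 9 genes lower in all 3 pairs, 10 to 18 genes were lower in both remaining pairs when 1 pair was left out. This is a weaker condition, and the share of all genes that met it was not computed. The medians of Sec62 and Sec63 were −0.015 and −0.014 with TMM scaling and quantile normalization. Per kb of the longest coding transcript, the levels of the Sec61 channel, Sec62 with Sec63, TRAP, signal peptidase, SRP with its receptor, *Hm13* and EMC were 402, 98.0, 912, 567, 306, 319 and 89.2, and means in place of medians gave 282 for the Sec61 channel, 155 for SRP with its receptor and 96.7 for EMC, the last being above Sec62 with Sec63 (80.1). The causes were not tested. Genes with few fragments were measured less precisely at this depth, and 3 pairs cannot give an exact permutation *p* under 0.25.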

Other observations

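*Bcap29*, a relative of the ER membrane protein encoded by *Bcap31* and 1 of the further targeting and insertion genes, was singled out after its values were seen. It had 168, 408 and 0 normalized counts in the WT libraries of pairs 1, 2 and 3 and 0, 397 and 1.82 in the KO libraries, so that each genotype held a library with at least 168 counts and a library at or near 0, and the littermates of pair 1 differed from each other. Its log2 fold change was −1.98 (SE 1.55, adjusted *p* = 0.970 from limma). *Bcap31* had between 612 and 774 normalized counts in all 6 libraries.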
